A study of Homo sapiens with 36 samples.

Results

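RNA levels of 36 listed lysosomal genes were followed through NFYB knockdown and E2F1 activation in U2OS ER-HA-E2F1 cells. The set was given as a list of gene names, 7 membrane proteins and 29 enzymes, activators and lipid carriers of the lysosome interior. The list was drawn up with earlier results of these data known. Of these, 35 were read by the brightest probe set (highest mean of log2 signals) among those that the array annotation gives to that gene alone, out of 11963 genes with such a probe set. GLB1, the lysosomal beta-galactosidase, shares its only probe set with TMPPE and therefore has no value here.

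U2OS is a human osteosarcoma line, and this derivative carries a stable retroviral fusion of the oestrogen receptor hormone-binding domain, an HA tag and E2F1, which enters the nucleus when 4-hydroxytamoxifen (OHT) is added. Cells received 1 of 4 siRNAs: a Dharmacon or a Sigma-Aldrich negative control, or an siRNA to NFYB from Ambion or from Dharmacon, NFYB being a subunit of the CCAAT-binding factor NF-Y. Every culture was then serum starved for 24 h, and RNA was taken at 0 h or after 4 or 8 h of 80 nM OHT, with 3 arrays for each of the 12 conditions. Both siRNAs of an arm were pooled, so each arm had 6 arrays per time, and the p-values measure the spread between these arrays, including the difference between the siRNAs. All groups carry the fusion protein, and the 8 h arrays also come from cells starved for longer and exposed to OHT. The effects of E2F1, OHT itself and the added starvation hours cannot be told apart here.

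Lysosomes are acidic organelles in which hydrolases break down proteins, glycans, sulfated sugars and lipids delivered by endocytosis and autophagy. Most of the hydrolases are made in the endoplasmic reticulum, tagged with mannose 6-phosphate in the Golgi and carried to the lysosome by mannose 6-phosphate receptors, whereas the membrane proteins reach it by their own sorting signals. Many of these genes are known targets of TFEB and related factors, which bind the CLEAR element, and inherited loss of single enzymes causes lysosomal storage diseases.

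Signals are MAS5 values scaled so that the trimmed mean of every array was near 500. A signal depends on the probes as well as on the RNA, so levels were compared only within a probe set. Array medians ran from 101 to 120. NFYB fell with both arms compared at each time, from a mean of 187 to 66.6 at 0 h and from 649 to 127 at 8 h (log2 fold change of -2.44, adjusted p = 2.43e-11 by limma). Of 10 mesenchymal and osteogenic markers, 7 lay in the upper 40% of probe sets, among them VIM and SPARC, while COL1A2, RUNX2 and ALPL did not. Of 5 epithelial markers 1 lay there, EPCAM. None of 6 macrophage markers did, whose summed signal ran from 87.8 to 193 per array. Among the lysosomal genes, 33 of 35 lay in the upper 60%, and the dim ones were the cysteine cathepsins CTSO and CTSS, the latter with group medians from 4.39 to 22.2.

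The knockdown comparison asks which of the genes differ in level when NFYB is reduced, before and after E2F1 activation. It gave few calls among these genes, a call meaning that p, adjusted across the 22215 probe sets, was under 0.05. The lower genes were NPC1 at 0 h and LAPTM4A at 4 h and 8 h, and none was higher. At 0 h, 1 of 35 genes was called lower, against 2.0% of all probe sets called lower and 1.58% called higher. At 4 h the count was again 1 of 35, against 1.45% lower and 1.48% higher in the whole table. At 8 h it was 1 of 35, against 2.46% lower and 2.18% higher. Brighter probe sets were called more often. In fits of the upper 60% alone, 4.04%, 2.93% and 5.17% of probe sets were lower at 0, 4 and 8 h, with 1 of 33 lysosomal genes lower each time. With the siRNAs as groups of their own (12 groups of siRNA and time), which leaves the difference between siRNAs out of the spread, 9 of 35 genes were lower at 0 h against 6.11% of probe sets. By that fit 4 were lower at 4 h against 5.29%, 5 were lower at 8 h against 7.19%, and none was higher. These shares are of all probe sets, and that of the upper 60% was not taken for the 12-group fit. The count of calls among these genes thus depended on how the siRNAs were treated. The median log2 fold change of the 35 genes was -0.13 before OHT, -0.07 after 4 h and -0.04 after 8 h, beside 0.00, -0.01 and -0.03 over all probe sets, and 30, 27 and 23 of the genes had estimates below 0, beside 49.8%, 51.6% and 54.0% of all probe sets.

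LAPTM4A, a small multi-spanning protein of late endosomes and lysosomes, was the gene called lower at both 4 h and 8 h by its brightest probe set. Its promoter is shown because it was the gene called with knockdown at 8 h, and it carries 3 copies of the CCAAT box that NF-Y binds. The window is the 250 bases before the transcription start in RefSeq (GRCh38.p14, chr2:20051629-20051878, minus strand), written 5′ to 3′ along the gene, with CCAAT or its complement ATTGG in capitals. The first of the 3 begins at -173, the second at -138 and the third at -100 from the start.
LAPTM4A: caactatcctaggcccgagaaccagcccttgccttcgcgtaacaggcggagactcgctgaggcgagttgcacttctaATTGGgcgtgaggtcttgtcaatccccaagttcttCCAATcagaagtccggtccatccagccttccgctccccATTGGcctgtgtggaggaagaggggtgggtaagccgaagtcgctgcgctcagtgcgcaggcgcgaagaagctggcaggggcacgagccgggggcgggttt
For comparison, the same window of LAMP1, the heavily glycosylated protein that lines the lysosomal membrane, is given with the palindromic CLEAR octamer TCACGTGA in capitals (chr13:113296989-113297238, plus strand). A second LAMP1 match begins at -2, runs past the start and is not marked. LAMP1 was chosen for display after its matches had been seen.
LAMP1: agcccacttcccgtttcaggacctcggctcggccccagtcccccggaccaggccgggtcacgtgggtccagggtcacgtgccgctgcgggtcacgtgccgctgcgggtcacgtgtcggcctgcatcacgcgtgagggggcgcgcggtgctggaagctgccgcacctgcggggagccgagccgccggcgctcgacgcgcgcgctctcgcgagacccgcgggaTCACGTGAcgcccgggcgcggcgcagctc
Searched on both strands in windows from 250 bases before to 50 after the start, CCAAT was found in 34.6% of 35114 RefSeq promoters and in 8 of the 24 lysosomal genes with a promoter entry. Windows with 3 or more copies made up 3.26% of all promoters and belonged to 3 of the 24 genes, LAPTM4A, GLA and GM2A. The CLEAR octamer was present in 0.98% of promoters and in 4 of the 24, LAMP1, MCOLN1, CTSA and GAA. The E2F letters TTTCCCGC or TTTGGCGC occurred in 2.27% of promoters and in none of the 24. No match in the printed windows overlapped another, and a match describes letters, not a bound site.

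Before OHT, the 6 control arrays gave LAPTM4A signals from 7077 to 8650, with a median of 7990, and the 6 NFYB siRNA arrays from 5225 to 7734, with a median of 5613. At 8 h the controls ran from 5332 to 6309, with a median of 5795, and the NFYB siRNA arrays from 2818 to 5267, with a median of 4067. The arms overlapped at 0 h, whereas at 8 h every NFYB siRNA array lay below every control array. The knockdown difference had an SE of 0.13 and came to -0.40 before OHT (limma adjusted p = 0.0787). After 4 h it was -0.45 (adjusted p = 0.0468), and after 8 h -0.54 (adjusted p = 0.00876), 1.46-fold lower. The 4 h call was lost without any of 19 single arrays, and the 8 h call in refits of the arms with the Dharmacon NFYB siRNA alone (-0.23, adjusted p = 0.145) or the Sigma-Aldrich control alone, and by the study methods' t-test. In bulk RNA a lower level per cell and fewer cells carrying the transcript cannot be told apart.

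The NFYB siRNAs differed in how far LAPTM4A was lowered. At 8 h the Ambion siRNA arrays read 2818, 3354 and 3515, and the Dharmacon NFYB siRNA arrays 4975, 5267 and 4618. The values of the NFYB siRNAs did not overlap, and the highest of the Dharmacon values was just under the lowest control. In the 12-group fit, whose spread is that within a siRNA, the difference from the pooled controls at 8 h was -0.86 for the Ambion siRNA (SE 0.074, limma adjusted p = 8.63e-10) and -0.23 for the Dharmacon NFYB siRNA (SE 0.074, adjusted p = 0.0264). Averaged over the 3 times, the Ambion arrays were lower than the Dharmacon NFYB arrays by a log2 value of -0.52 (adjusted p = 1.51e-09). NFYB itself went the other way in that comparison. It was higher with the Ambion than with the Dharmacon NFYB siRNA, by 0.59 (limma adjusted p = 0.00021). The siRNA with the lower LAPTM4A signal was thus the one with the higher NFYB signal. GLA and GM2A, the other genes with 3 CCAAT copies, had 8 h knockdown differences of 0.04 and -0.08, and neither was called. Whether the CCAAT copies bear on any of these differences was not tested.

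**Figure D1:**
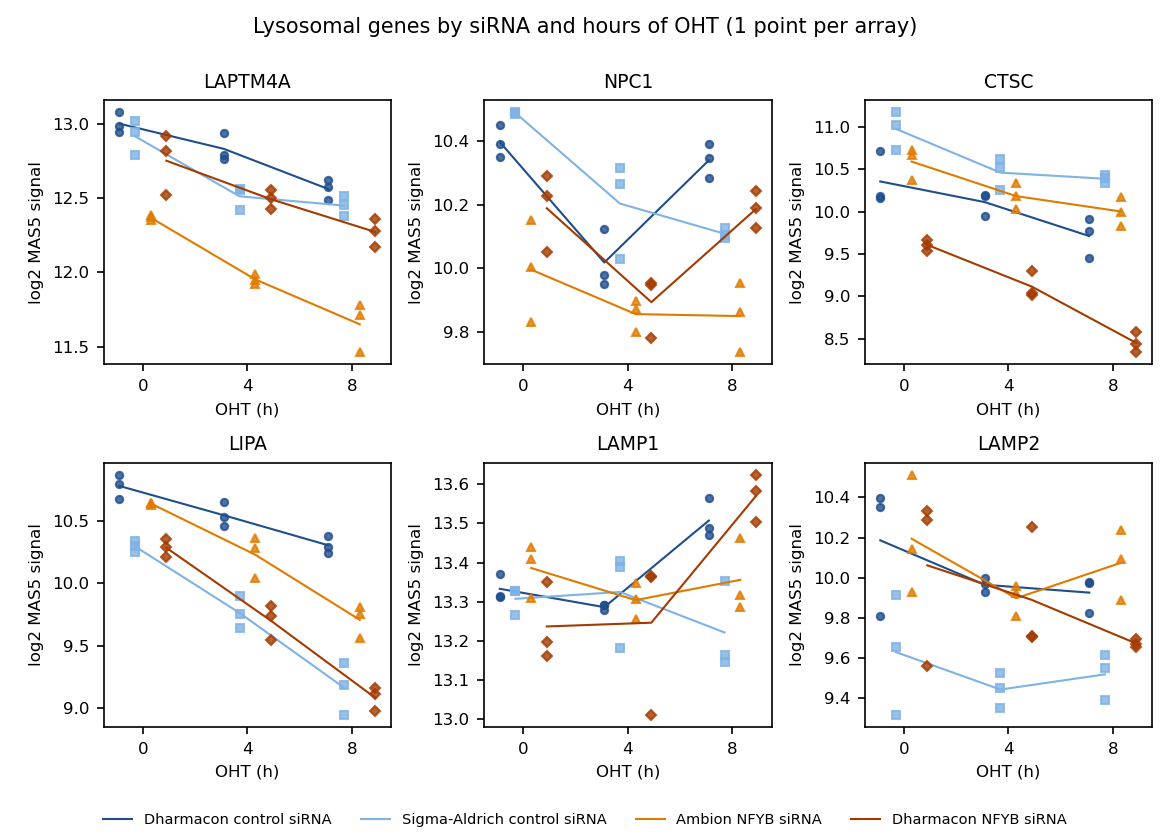
Log2 MAS5 signal (vertical axes, separate scales that do not start at 0) against hours of OHT for LAPTM4A, NPC1, CTSC, LIPA, LAMP1 and the brightest LAMP2 probe set. Each point is 1 array, offset sideways by siRNA, and lines join the means of 3 arrays: LAPTM4A is lowest with the Ambion NFYB siRNA at every time, CTSC with the Dharmacon NFYB siRNA, and LAMP1 shows no order shared by the siRNAs of an arm.

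Among the other membrane proteins, NPC1, which exports cholesterol from the lysosome, was called lower before OHT. Its control arrays at 0 h ran from 1306 to 1438 (median 1416) and its NFYB siRNA arrays from 910 to 1252 (median 1099), without overlap. The difference was -0.35 (SE 0.082, limma adjusted p = 0.00835) at 0 h, and -0.24 at 4 h and -0.21 at 8 h, where it was not called (adjusted p = 0.123 and 0.158). In the 12-group fit the 8 h difference was -0.37 with the Ambion siRNA (adjusted p = 0.000457) and -0.04 with the Dharmacon NFYB siRNA (adjusted p = 0.806). Averaged with a second, dim probe set of the gene, the 0 h difference was 0.054 and not called, and the call was also lost with the Dharmacon NFYB siRNA alone (-0.25, adjusted p = 0.0768) and by the methods' t-test. LAMP1 varied by -0.01, -0.03 and 0.10 across the times, with an 8 h interval from -0.05 to 0.25. The tetraspanin CD63 had -0.03, 0.00 and 0.11. SCARB2, the receptor that carries glucocerebrosidase to the lysosome, and the cation channel MCOLN1 had 8 h estimates of -0.17 and -0.19, neither of them called.

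LAMP2, the membrane protein required for the maturation of autophagic vacuoles, gave different answers by probe set. Its brightest probe set had differences of 0.22, 0.19 and 0.15 at 0, 4 and 8 h, none called (limma adjusted p from 0.567 to 0.72). The second probe set read from 721 to 886 in the controls at 8 h (median 784) and from 541 to 662 in the NFYB siRNA arrays (median 618). These groups did not overlap, and the difference was -0.38 (SE 0.078, adjusted p = 0.00192). It was called before OHT too (-0.33, adjusted p = 0.0102), as after 4 h (-0.35, adjusted p = 0.0055). The third probe set stood at -0.27 at each time and missed the threshold (adjusted p from 0.0657 to 0.0866). The second probe set is in a list that the study chose on these arrays, so its difference is not independent evidence. No other lysosomal gene had a further probe set called with knockdown, and none had probe sets called in opposite directions.

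Among the proteases, cathepsin C (CTSC), the dipeptidyl peptidase that activates serine proteases of granules, had the lowest knockdown estimates, -0.57, -0.64 and -0.82 at 0, 4 and 8 h, and was not called at any time (limma adjusted p = 0.349, 0.29 and 0.101). Its 8 h values were 382, 347 and 324 with the Dharmacon NFYB siRNA but 1022, 913 and 1153 with the Ambion siRNA. Those of the controls were 875, 962 and 699 with the Dharmacon and 1291, 1379 and 1346 with the Sigma-Aldrich siRNA. Only the Dharmacon NFYB arrays lay below all controls, and the Ambion arrays lay inside the control range. By the 12-group fit the 8 h difference from the pooled controls was -1.60 for the Dharmacon NFYB siRNA (SE 0.12, adjusted p = 1.41e-11) and -0.05 for the Ambion siRNA (adjusted p = 0.909). The aspartic protease CTSD had -0.34 before OHT (adjusted p = 0.11) and -0.09 at 8 h, and CTSB, a cysteine protease, had 0.13 at 8 h (adjusted p = 0.266).

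Lysosomal acid lipase (LIPA), which hydrolyses cholesteryl esters and triglycerides, also followed the siRNA rather than the arm. Its 8 h signals were 505, 553 and 572 with the Dharmacon NFYB siRNA and 757, 863 and 896 with the Ambion siRNA. The controls read 1251, 1334 and 1210 with the Dharmacon and 493, 583 and 658 with the Sigma-Aldrich siRNA, so the Sigma-Aldrich control arrays spanned the values of the Dharmacon NFYB siRNA. The pooled 8 h difference was -0.34 (SE 0.21, limma adjusted p = 0.451). The 7 glycosidases and 3 sulfatases had no call at any time, with estimates at 8 h from -0.10 to 0.07 for the glycosidases. Acid ceramidase (ASAH1) was called lower at 8 h with the Dharmacon NFYB siRNA but not with the Ambion siRNA or in the pooled comparison.

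**Figure D2:**
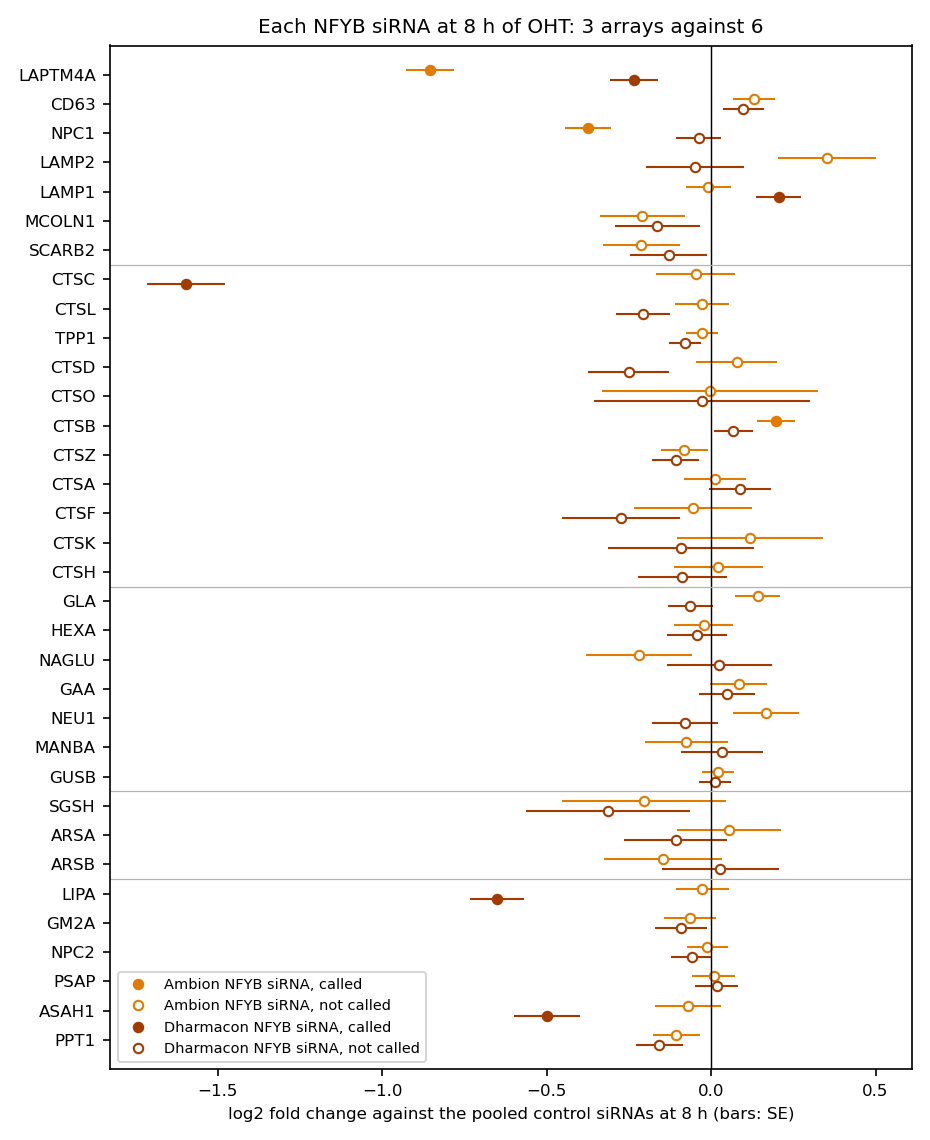
Log2 fold change of 34 lysosomal genes (vertical axis, grouped by role: membrane proteins, proteases, glycosidases, sulfatases, lipid enzymes and carriers) with each NFYB siRNA against the pooled control siRNAs at 8 h of OHT. Bars are SE, filled points were called in the 12-group fit, and CTSS, at signals near the floor, is left out; the Ambion point of LAPTM4A (-0.86) and the Dharmacon points of CTSC (-1.60) and LIPA (-0.65) stand away from the other siRNA's.

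The siRNAs of one arm differed from each other at many of these genes. Between the control siRNAs, as the mean over 3 times of 9 arrays against 9, 13 of 35 genes were lower with the Dharmacon control, against 15.2% of all probe sets and 25.6% of the upper 60%, and 4 were higher, against 10.5%. Between the NFYB siRNAs, 12 were lower with the Dharmacon siRNA, against 9.75% of all probe sets and 17.1% of the upper 60%, and 2 were higher, against 7.33%. These comparisons share no arrays. The same 7 genes were lower with the Dharmacon siRNA in both, CD63, CTSC, GLA, SGSH, ASAH1, PSAP and GM2A, or 53.8% of the 13 and 58.3% of the 12. Over all probe sets, 16.4% of those lower with the Dharmacon control and 25.5% of those lower with the Dharmacon NFYB siRNA were lower in both. These shares are not like for like. In each comparison alone a larger part of the lysosomal genes was called (37.1% and 34.3%), which by itself raises their overlap. The overlap was not counted within the upper 60%, so it is not read as particular to these genes. GM2A, the activator that presents GM2 ganglioside to hexosaminidase A, differed by -0.55 between the controls (limma adjusted p = 6.85e-10) and, as Ambion minus Dharmacon, by 0.16 between the NFYB siRNAs (adjusted p = 0.0294). LAPTM4A alone was higher with the Dharmacon siRNA in both arms, by 0.17 between controls (adjusted p = 0.0077). LIPA ran in opposite directions, 0.80 higher with the Dharmacon control (adjusted p = 3.5e-13) and 0.50 higher with the Ambion than with the Dharmacon NFYB siRNA (adjusted p = 2.18e-08). The NFYB signal differed between the NFYB siRNAs, by 0.59 as Ambion minus Dharmacon (limma adjusted p = 0.00021). Between the controls it was not called (0.08, adjusted p = 0.676). Whether the NFYB level bears on the differences of these genes, and what else separates the siRNAs of an arm, was not tested.

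E2F1 activation moved more of the genes, mostly down. On the array at large lower calls also outnumbered higher ones, but less strongly. In control cells 12 of 35 were lower at 4 h and none higher, against 23.3% of probe sets lower and 16.1% higher. At 8 h 16 were lower and 3 higher, against 29.6% lower and 20.3% higher. Brighter probe sets were called more often: within the upper 60%, 37.5% were lower at 4 h and 45.6% at 8 h. Higher there were 23.8% at 4 h and 29.0% at 8 h. Of the 33 lysosomal genes in that part, 17 were lower and 3 higher at 8 h. The counts of lower genes were thus close to that background, and those of higher genes were below it. The median log2 change at 8 h was -0.27 over the 35 genes and -0.10 over all probe sets.

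The lipid group held the highest share, with 4 of 6 genes lower at 8 h. With so few genes this is little apart from the 4 of 7 glycosidases, and 45.6% of the upper 60% of probe sets were lower. LIPA fell by 0.80 on the log2 scale (SE 0.21, limma adjusted p = 0.00152), from 1216 to 1867 (median 1465) at 0 h to 493 to 1334 (median 934) at 8 h, with overlap. GM2A went from 1034 to 1523 (median 1254) to 587 to 1001 (median 723), without overlap, which is 1.72-fold lower (adjusted p = 9.73e-06). Averaged over the gene's 6 probe sets, most of them dim, the GM2A change was -0.33 and not called (adjusted p = 0.201). NPC2, which hands cholesterol to NPC1, read 8513 to 9808 at 0 h (median 9071) and 6207 to 7376 at 8 h (median 6746), a change of -0.44 (adjusted p = 3.26e-06). PSAP, the precursor of the saposins that help degrade sphingolipids, changed by -0.42 (adjusted p = 1.06e-05). The thioesterase PPT1 and ASAH1 were not called in control cells.

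Among glycosidases and sulfatases, GLA and SGSH were clearest. GLA, the alpha-galactosidase lacking in Fabry disease, fell from 779 to 1102 (median 1024) at 0 h to 686 to 824 (median 744) at 4 h and 487 to 659 (median 628) at 8 h. The 0 h and 8 h arrays did not overlap, and the 8 h level was 1.65-fold lower (log2 -0.72, SE 0.084, limma adjusted p = 2.51e-09). SGSH, the sulfamidase of heparan sulfate breakdown, went from 169 to 364 (median 204) to 52.3 to 109 (median 81.5), which is 2.71-fold lower (adjusted p = 1.55e-05). NAGLU, another heparan sulfate enzyme, changed by -0.53 (adjusted p = 0.0049), HEXA, the alpha subunit of hexosaminidase A, by -0.55 (adjusted p = 3.56e-05) and GAA, the glycogen-degrading alpha-glucosidase, by -0.27 (adjusted p = 0.00795). ARSB, which removes sulfate from dermatan and chondroitin sulfate, rose from 61.7 to 103 (median 82.7) to 93.0 to 125 (median 118), a change of 0.45 (adjusted p = 0.00862) with overlap.

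**Figure D3:**
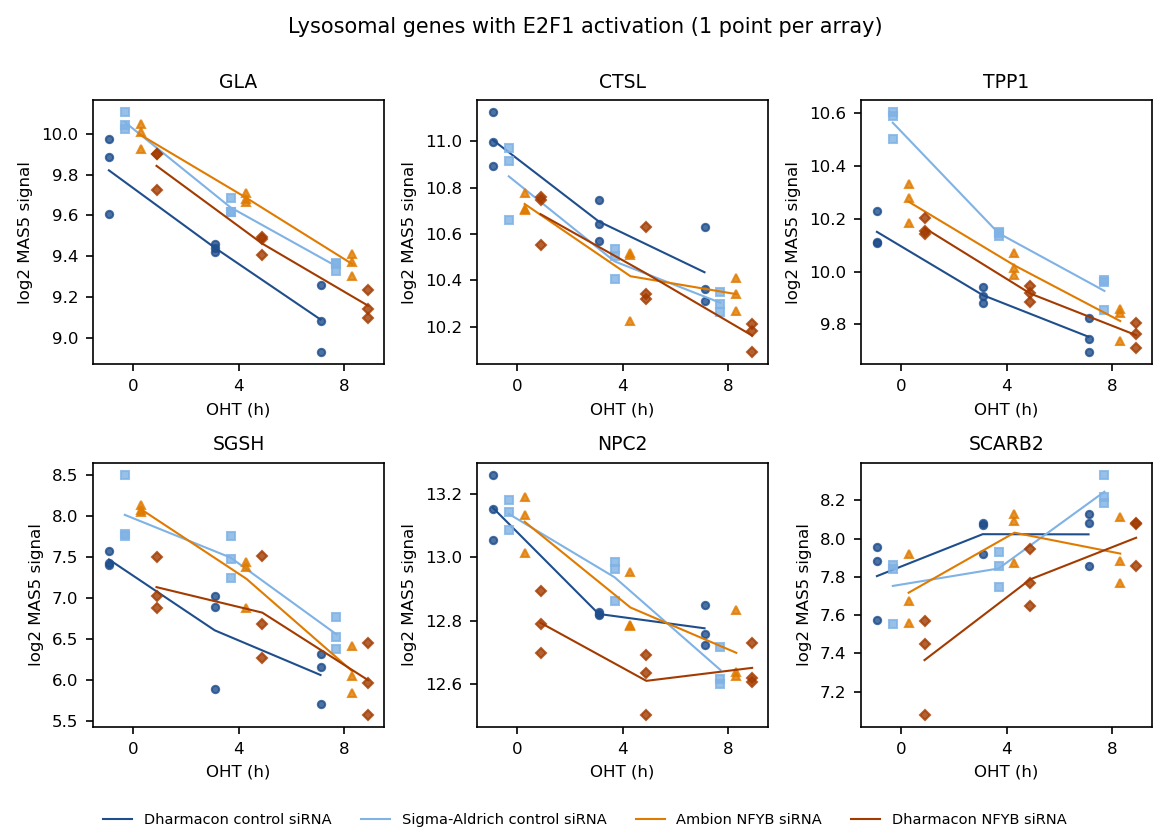
Log2 MAS5 signal (vertical axes, separate scales that do not start at 0) against hours of OHT for GLA, CTSL, TPP1, SGSH, NPC2 and SCARB2. Each point is 1 array, offset sideways by siRNA, and lines join the means of 3 arrays; the first 5 genes read lower at 8 h than at 0 h with all 4 siRNAs, and SCARB2 reads higher.

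Of 12 proteases, 4 were lower at 8 h and CTSH was higher. CTSL, a cysteine endopeptidase, went from 1620 to 2235 (median 1969) to 1230 to 1587 (median 1287), and TPP1, a serine tripeptidyl peptidase, from 1104 to 1554 (median 1325) to 828 to 1000 (median 916). Neither gene had an 8 h array within its 0 h range. The changes were -0.56 (SE 0.076, limma adjusted p = 6.68e-08) and -0.52 (SE 0.076, adjusted p = 3.36e-07). CTSD fell by 0.48 on the log2 scale (adjusted p = 0.00064). CTSB read 4628 to 5294 at 0 h (median 4827) and 4038 to 4571 at 8 h (median 4267), again without overlap, and its change was -0.20 (adjusted p = 0.00593). The aminopeptidase CTSH gained 0.33 (adjusted p = 0.0274), and the control siRNAs differed in this. With the Dharmacon control it read 144, 140 and 134 at 0 h and 190, 231 and 201 at 8 h. With the Sigma-Aldrich control it read 176, 185 and 194 at 0 h and 147, 200 and 255 at 8 h, with overlap.

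Of the membrane proteins, CD63 fell from 7852 to 9970 (median 9237) to 6557 to 7684 (median 7246), a change of -0.34 (SE 0.07, limma adjusted p = 6.69e-05), without overlap. LAPTM4A changed by -0.45 (adjusted p = 0.00311) and NPC1 by -0.22 (adjusted p = 0.0245). With the Dharmacon control NPC1 read 1343, 1398 and 1306 at 0 h and 1342, 1246 and 1301 at 8 h, with overlap. With the Sigma-Aldrich control it read 1434, 1438 and 1436 at 0 h and 1093, 1102 and 1117 at 8 h. SCARB2 rose from 188 to 248 (median 231) to 232 to 323 (median 286), a change of 0.36 (SE 0.11, adjusted p = 0.00737) with overlap. LAMP1 was not called, at 0.04 with an interval from -0.10 to 0.19, while its 8 h arrays spread from 9071 to 12107. The brightest LAMP2 probe set was not called either (-0.19, adjusted p = 0.369), whereas the second was lower by -0.37 (adjusted p = 0.000105) and the third by -0.25 (adjusted p = 0.0149).

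With NFYB siRNA, 14 of 35 genes were lower at 8 h than at 0 h, against 29.4% of all probe sets and 44.9% of the upper 60%, and 3 were higher, against 18.5%. Called in both arms and in the same direction were 13 genes: CD63, CTSL, GLA, GM2A, HEXA, LAPTM4A, LIPA, NAGLU, NPC2, PSAP, SGSH and TPP1 lower and SCARB2 higher. These 12 lower genes are 34.3% of the 35. Of all probe sets 25.3% were lower in both arms, and of the upper 60% 38.9%, so the overlap of lower genes is close to that of the array. The 1 gene higher in both arms is 2.86% of the 35, below the 16.5% of all probe sets and 24.7% of the upper 60%. None of the genes was called in opposite directions. CTSC, ASAH1, CTSK and GUSB passed the threshold only in NFYB siRNA cells, and ARSB, CTSB, CTSD, CTSH, GAA and NPC1 only in control cells.

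The difference between the arms' responses was tested directly and called for none of the 35 genes, against 0.171% of probe sets called higher and 0.0315% called lower. None had an unadjusted p under 0.05 either (limma, smallest unadjusted p = 0.0774, smallest adjusted p = 0.757). The estimates lay between -0.26 and 0.35. For LAPTM4A the difference was -0.15 with an interval from -0.52 to 0.22, for LIPA -0.26 (-0.87 to 0.34), for CTSC -0.26 (-1.09 to 0.57), and for GLA 0.06 (-0.18 to 0.30). The data therefore leave room for differences in response of these sizes.

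**Figure D4:**
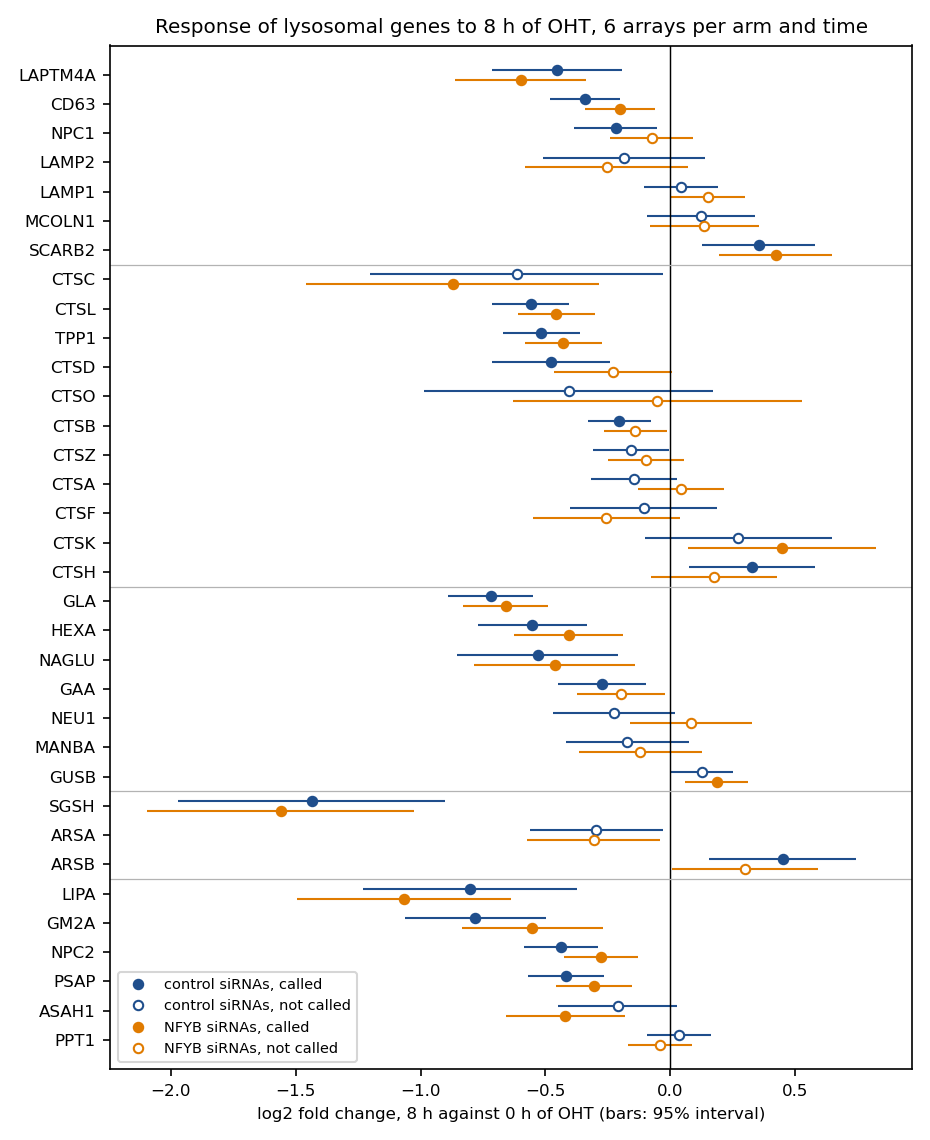
Log2 fold change from 0 to 8 h of OHT (horizontal axis, bars are 95% intervals) for 34 lysosomal genes grouped by role as membrane proteins, proteases, glycosidases, sulfatases, and lipid enzymes and carriers, in control siRNA and NFYB siRNA cells. Filled points were called; CTSS, at signals near the floor, is left out, and SGSH lies lowest in both arms (-1.44 and -1.56).

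Other genes of the pathway were read from lists of their own. Of 28 measured further lysosomal enzymes and membrane proteins, none was higher and 2 were lower with knockdown at 8 h, TMEM59 (-0.42, limma adjusted p = 0.00307) and DNASE2, the acid DNase (-0.35, adjusted p = 0.0368). With that knockdown 2.46% of all probe sets were lower and 2.18% higher, and 5.17% and 4.72% of the upper 60%. With E2F1, 5 were higher and 15 lower at 8 h in control cells. Beside them stand the 20.3% higher and 29.6% lower of all probe sets and the 45.6% lower of the upper 60%. The shares for knockdown and for E2F1 serve for the lists that follow. The cathepsin L relative CTSV rose 3.54-fold (adjusted p = 1.02e-18) and GGH, which trims folate polyglutamates, 1.59-fold (adjusted p = 9.46e-08), while the acid phosphatase ACP2 changed by -0.85 (adjusted p = 7.07e-08).

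Of 16 proton pump subunits, which acidify the lysosome, none was called with knockdown at 8 h, and 2 were higher and 7 lower with E2F1, close to the lower share of the brighter probe sets. ATP6V0B rose 2.47-fold (limma adjusted p = 3.22e-17), and ATP6V1G1 and ATP6V1E1 changed by -0.90 and -0.69. Of 14 genes for enzyme tagging and delivery, GNPTAB, which adds the mannose 6-phosphate tag, and its receptor IGF2R were lower with knockdown at 8 h (-0.43, adjusted p = 0.0283, and -0.31, adjusted p = 0.0104). GNPTAB is also in the list that the study chose on these arrays. With E2F1, 3 were higher and 6 lower, again near the array's shares, with GGA3, AP1G1 and VPS35, which sort cargo between Golgi and endosomes, at -0.99, -0.98 and -0.81.

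Of 14 genes for TFEB-type factors and the mTORC1 machinery on the lysosome, 3 were higher and 7 lower with E2F1 at 8 h, against the same 20.3% and 29.6% (45.6% of the upper 60%). TFEB, the factor that binds the CLEAR element, rose 5.52-fold (limma adjusted p = 3.16e-21), and RRAGD, a GTPase that recruits mTORC1, 4.41-fold (adjusted p = 4.76e-18), while its relative RRAGA changed by -1.01. Of the 4 listed genes with a CLEAR octamer, GAA was called lower. LAMP1 and MCOLN1 (changes of 0.04 and 0.12) and CTSA were not called. Whether the rise of TFEB bears on these genes was not tested. With knockdown at 8 h LAMTOR5 was higher (0.69, adjusted p = 0.00565) and RRAGA lower (-0.35, adjusted p = 0.007). None of 5 cystatins, inhibitors of cysteine cathepsins, was called with knockdown, and CSTA and CST3 were lower with E2F1. The difference of responses was called for none of the genes in these lists.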

How the data were processed

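RNA of 36 cultures was measured on Affymetrix human expression arrays. The authors purified, amplified and labelled the RNA and deposited MAS5 signal intensity values, which per the labels came from Affymetrix Expression Console (version not given in the sources used here). Of 22277 probe sets, 62 controls were left out, and 22215 entered every fit. Arrays carry no counts, so their number limits the precision. Intensities were taken to log2 and tested with limma 3.58.1 in R 4.3.3 (eBayes with a variance trend, Benjamini-Hochberg adjustment over all probe sets, called under 0.05). The 6 groups of arm and time gave the knockdown and E2F1 comparisons, and 12 groups of siRNA and time those between siRNAs. The code was tested on simulated data. Probe sets naming several genes (1043) or none (2108) took part in the fits unnamed. The members and gene lists were chosen with earlier results of these data known. LAMP1, LAMP2, CD63, CTSB and CTSD were always named, with up to 10 called genes of smallest adjusted p in each comparison and up to 3 from each other list; CTSC, LIPA, MCOLN1 and further genes were added after their values were seen. The fits were repeated with quantile normalization, with 16 added to the signals, on the upper 60% of probe sets, with other groupings and blocks, for single siRNAs, by the methods' t-test, with a gene's probe sets averaged, and without each array. Promoters came from RefSeq (GRCh38.p14), with 24 of 36 genes matched by symbol.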

Additional observations from a re-analysis of the deposited data

Results flagged for a closer look

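In 7 of 126 groups of 6 arrays examined for the named genes, the highest or lowest array stood apart from the others by Dixon's criterion, where chance gives about 1 in 20 groups. LAMP1 read 8256 in Dharmacon NFYB siRNA replicate 2 at 4 h, with the others of that arm from 9781 to 10550. CTSL read 1587 in Dharmacon control replicate 3 at 8 h (others 1230 to 1316) and 1502 in Dharmacon NFYB siRNA replicate 2 at 0 h (others 1670 to 1756). HEXA read 927 in Dharmacon NFYB siRNA replicate 3 at 0 h (others 1144 to 1284). SGSH read 364 in Sigma-Aldrich control replicate 1 at 0 h (others 169 to 220). ASAH1 read 3079 in Sigma-Aldrich control replicate 3 at 4 h (others 2095 to 2420) and 1852 in Dharmacon NFYB siRNA replicate 1 at 0 h (others 2341 to 2616).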

How the results depend on the processing

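Settings of scale (an offset of 16, quantile normalization) kept the counts of called lysosomal genes within 1.5 times of those reported in all 9 comparisons. Of the 1 gene called with knockdown at 0 h, the count became 9 with 12 groups, 2 with the Ambion or the Dharmacon control siRNA alone, 4 with the Dharmacon NFYB siRNA alone, 5 with the Sigma-Aldrich control alone, and 0 with the methods' t-test or with a gene's probe sets averaged. At 4 h it became 4 with 12 groups, 2 with the Dharmacon NFYB or control siRNA alone, and 0 without the variance trend, with only the groups compared, or with the methods' t-test. At 8 h it became 5 with 12 groups, 2 with either NFYB siRNA alone, 3 with the Dharmacon control alone, and 0 with the methods' t-test. The E2F1 response at 8 h went from 19 genes to 12 with the Dharmacon control alone, and in NFYB siRNA cells from 17 to 11 with the Dharmacon NFYB siRNA alone. The methods' t-test gave 3 of the 17 between control siRNAs and 1 of the 14 between NFYB siRNAs. Over all probe sets, the 1032 calls with knockdown at 8 h became 2953 with 12 groups, 621 with siRNA as a random block and 455 with the methods' t-test. Under the methods' own threshold at 8 h, 225 probe sets passed, none of them the brightest probe set of a lysosomal gene.

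Leaving out each array gave 1 to 2 genes with knockdown at 0 h, 0 to 1 at 4 h and 1 to 2 at 8 h. It gave 11 to 12 for E2F1 at 4 h, 17 to 21 at 8 h, 15 to 19 in NFYB siRNA cells, 0 for the difference, 15 to 18 between control siRNAs and 10 to 15 between NFYB siRNAs. The LAPTM4A call at 4 h was lost without any of 19 arrays. Without Sigma-Aldrich control replicate 1 or Dharmacon NFYB siRNA replicate 3 at 0 h, 2 genes were called at 0 h, and without Ambion NFYB siRNA replicate 3 at 8 h, 2 at 8 h. LAPTM4A at 8 h was not called with the Dharmacon NFYB siRNA alone, the Sigma-Aldrich control alone or the methods' t-test. With a gene's probe sets averaged, NPC1 at knockdown 0 h turned to 0.054 (its second probe set is dim), and ASAH1 between control siRNAs to 0.059; the cause was not tested.

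Replicate numbers paired the arrays weakly at most. Deviations from group means correlated on average at 0.0135 for the same number (29 of 198 pairs over 0.1) and at -0.00678 for different numbers (39 of 396 pairs). Of 36 arrays, 16 correlated best with their own number. With the number as a replicate block, the count at 4 h of knockdown went from 1 to 0, and every other count stayed within 1.5 times.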
